A study of Mus musculus with 16 samples.

Results

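The 9 genes Gata1, Klf1, Gfi1b, Zfpm1, Epor, Car1, Car2, Pf4 and Itga2b, a list of erythroid and megakaryocyte regulators and products, were followed in bulk RNA-seq of 2 multipotent progenitor populations of mouse bone marrow. All 9 were found among the 47937 gene identifiers of the count tables. The 16 libraries are read as coming from 8 mice, each of which gave an MPP3 and an MPP4 library of the same number. The mice were C57BL/6 by the labels and kept on the C57BL/6J background by the study's methods. Cells bearing CD3, B220, CD11b, Gr1 or Ter119 had been depleted, and MPP3 cells were sorted as LSK CD150- CD48+ and MPP4 cells as the Flt3+ cells of the same gate (LSK stands for lineage-negative, Sca-1+ and Kit+). The study's own staining panel takes MPP3 cells as Flt3-, which the labels do not state. The study targets Ebf1, a transcription factor gene known for its place in B cell development. By the sample labels, the 4 WT mice were Ebf1fl/fl Tie2Cre+/+, which carries no Cre, and the 4 KO mice were Ebf1fl/fl Tie2Cre +/cre, so both groups had floxed Ebf1 alleles. The series description differs: there Tie2Cre is carried by WT mice too, whose Ebf1 alleles are unfloxed, so an effect of the alleles and an effect of the transgene cannot be told apart here. Tie2Cre is driven by the promoter of Tek, which is active in blood stem cells and in endothelium. The WT group held 2 female and 2 male mice of 11 to 12 weeks, and the KO group held 2 female mice of 11 weeks and 2 male mice of 9 and 10 weeks.

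Red blood cells and platelets share a bipotent precursor, and a small set of transcription factors switches on both programs. GATA1 binds GATA letters in the promoters and enhancers of erythroid and megakaryocyte genes, with ZFPM1 (FOG1) as its cofactor. KLF1 favours the erythroid fate through CACCC boxes, and GFI1B is a repressor needed in both lineages. EPOR, the erythropoietin receptor, keeps maturing erythroid cells alive, the carbonic anhydrases CAR1 and CAR2 serve carbon dioxide transport in red cells, and PF4 and ITGA2B (CD41) are platelet proteins. Several of these genes are also used outside the pair of lineages, for example Gata1 and Gfi1b in mast cells, basophils or eosinophils, and Car2 in many progenitors.

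The 3 sequences below are shown because the regulators of the list bind such letters and the genes they precede are themselves members of the list. RefSeq promoters of the GRCm38.p6 build were found for 7 of the 9 members, and Car1 and Car2 were not among them. In the 250 bases before each start, both strands were searched for a GATA hexamer (AGATAA or AGATAG, and the same with T as the leading base) and for CCNCNCCC, the core of a CACCC box, where N is any base. A GATA hexamer stood before the start of 3 members, at 80 bases for Klf1, 120 bases for Gfi1b and 54 bases for Epor, and is printed in capitals (as its reverse complement for Klf1 and Epor). The stretches read 5′ to 3′ on the strand of each gene, and that of Klf1 stops where its annotated gene begins. The start that RefSeq gives for Epor lies outside the GENCODE transcripts of that gene.
Klf1 (chr8:84901732-84901927, plus strand): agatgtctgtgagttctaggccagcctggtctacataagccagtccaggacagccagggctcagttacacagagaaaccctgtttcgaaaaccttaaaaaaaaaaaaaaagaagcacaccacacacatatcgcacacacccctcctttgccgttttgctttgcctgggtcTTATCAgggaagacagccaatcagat
Gfi1b (chr2:28621983-28622232, minus strand): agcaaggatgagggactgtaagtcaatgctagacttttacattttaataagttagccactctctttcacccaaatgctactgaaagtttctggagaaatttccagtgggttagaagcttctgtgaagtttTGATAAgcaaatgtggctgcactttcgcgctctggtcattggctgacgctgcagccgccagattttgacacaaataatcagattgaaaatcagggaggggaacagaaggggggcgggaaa
Epor (chr9:21963577-21963826, minus strand): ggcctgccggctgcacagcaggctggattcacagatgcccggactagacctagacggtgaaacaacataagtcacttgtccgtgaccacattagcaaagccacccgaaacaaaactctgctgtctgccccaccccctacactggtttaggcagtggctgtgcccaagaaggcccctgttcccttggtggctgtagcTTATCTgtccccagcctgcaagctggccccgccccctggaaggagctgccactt
None of these 4 hexamers stood in the windows of Gata1, Zfpm1, Pf4 and Itga2b. The window of Gata1 lies within its annotated gene, and so does most of the window of Itga2b. Of all 32851 promoters of this length, 26.5% held at least 1 of them, and 45.9% held CCNCNCCC, which occurred in 5 members (Gata1, Gfi1b, Zfpm1, Epor and Itga2b). These are matches of letters only, and no binding was measured.

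The libraries held 24823708 to 48703193 counts. The test was run on the 11831 genes whose mean exceeded 100 counts in at least 1 of the 4 groups, and a gene was called where its edgeR quasi-likelihood FDR, adjusted over all genes tested, was under 0.1. Levels are TMM-normalised CPM (counts relative to the library size), and each log2 fold change stands with its standard error. Every library of a group came from another mouse, so the tests measure the spread between mice. Ebf1 itself had 5 to 91 counts in WT and 6 to 84 counts in KO libraries of MPP3, and 98 to 263 counts in WT and 488 to 928 counts in KO libraries of MPP4, so its count did not fall with the KO label, and every direction between genotypes rests on the labels. Cd79a, a B cell gene known as a target of EBF1 and named here after its values were seen, lay lower in the libraries labelled KO, at 0.0262 to 0.663 against 1.75 to 3.47 CPM in MPP3 and at 0 to 0.963 against 1.59 to 7.30 CPM in MPP4. It passed the filter through MPP4 WT alone, and its differences were not called (-3.01 ± 0.93, FDR 0.254, and -3.88 ± 0.97, FDR 0.160). Cd79b, which encodes its partner, had means of 72.4 CPM in KO against 72.1 CPM in WT in MPP3 and of 84.0 against 79.1 CPM in MPP4. Of the 6 tested B and plasma cell markers 2 were positive for KO over WT in MPP3 and 3 in MPP4, and none was called. The gate was visible in the transcripts: Flt3 lay at 256 to 313 CPM in MPP3 WT and 1164 to 1362 CPM in MPP4 WT, and Slamf1, which encodes CD150, did not exceed 3.49 CPM in any library. In bulk samples, fewer cells of a type and less RNA per cell cannot be told apart.

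Of the 9 members, 8 passed the filter on low counts. Gata1 and Pf4 passed only through the MPP3 groups, and Epor had a mean under 100 counts in all 4 groups. Compared per kilobase of exon, Car2 was by far the most abundant, with 571 ± 33.3 CPM per kb in MPP3 WT (SD, n = 4) and 83.0% to 89.5% of the summed level of the 9 genes in those libraries. In MPP3 WT it was followed by Gfi1b with 37.6 ± 12.2, Itga2b with 19.4 ± 0.475 and Car1 with 14.9 ± 3.88 CPM per kb. Pf4, Gata1, Zfpm1, Klf1 and Epor had 6.45 ± 2.19, 5.14 ± 1.81, 4.39 ± 1.62, 4.26 ± 1.78 and 1.46 ± 0.872 CPM per kb. The libraries of Itga2b and Car1 overlapped on this scale, as did those of neighbours from Pf4 to Klf1 in this order, whereas every Klf1 library (2.69 to 6.75 CPM per kb) lay above every Epor library (0.445 to 2.28 CPM per kb). In MPP4 WT the order began with Car2 at 406 ± 27.6 and Gfi1b at 20.4 ± 6.05 CPM per kb, and Gata1 with 0.679 ± 0.126 and Epor with 0.308 ± 0.271 CPM per kb closed it.

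**Figure D1:**
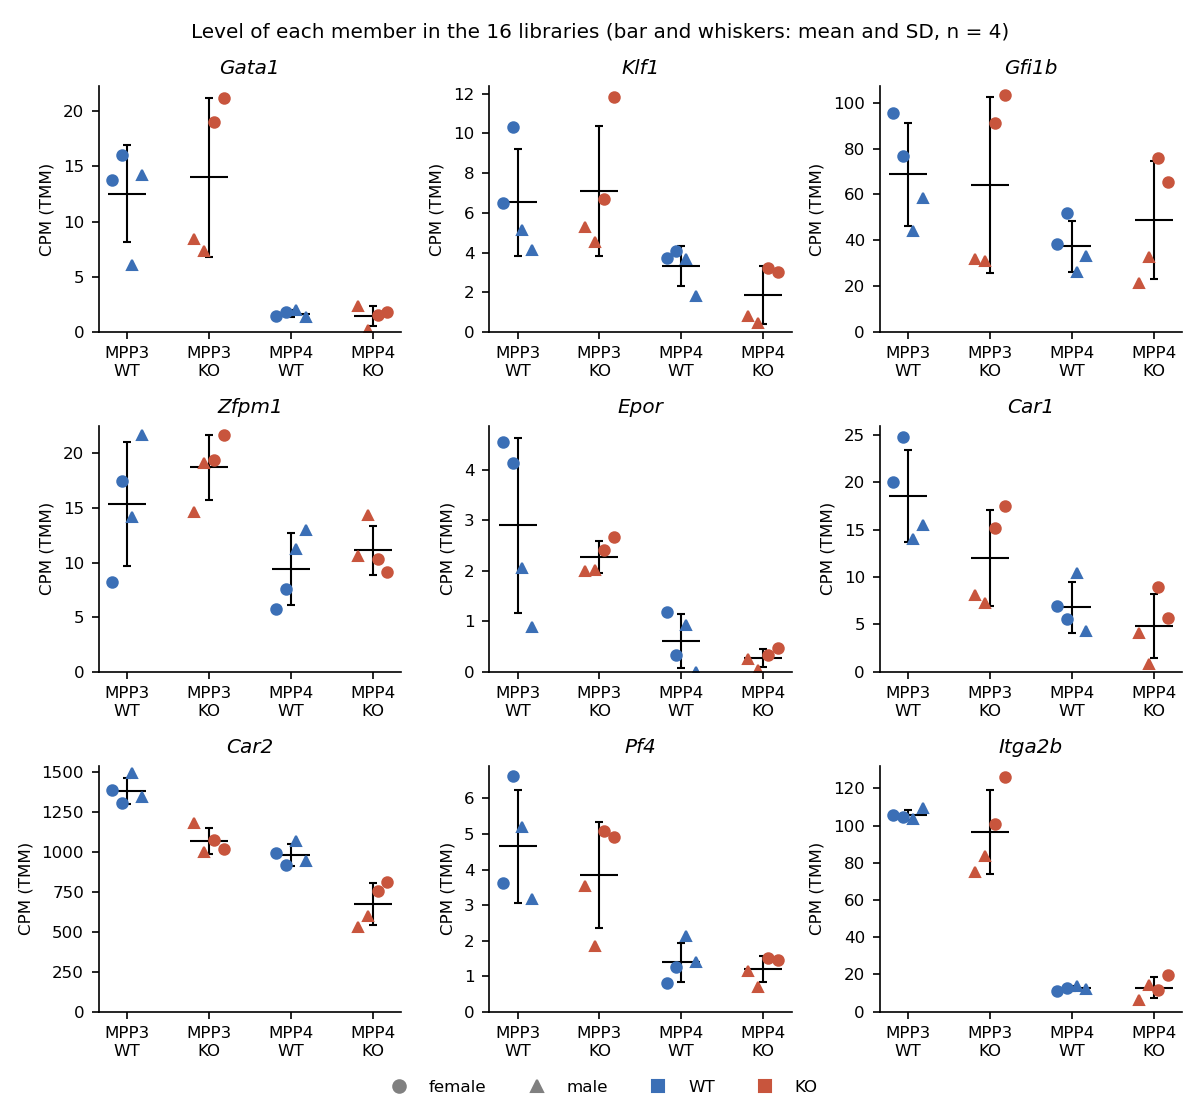
Level of each member in every library, in TMM-normalised CPM (linear axes from 0, 1 panel per gene), by population and labelled genotype. Points are libraries (circles female, triangles male), and the bar with whiskers is the mean with its SD over 4 libraries. Itga2b separates the populations most clearly, and in the Car2 panel the KO libraries lie below the WT libraries within each population.

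The comparison of MPP3 with MPP4 asked how far each population carries erythroid and megakaryocyte transcripts. All 8 tested members had a positive log2 fold change for MPP3 over MPP4 in both genotypes. In WT, 5 of the 8 were called and all 5 were higher in MPP3 (Itga2b, Gata1, Pf4, Car1 and Car2), where 15.1% of all genes tested were called and 6.8% were called higher in MPP3. In KO, 7 of the 8 were called, the same 5 with Klf1 and Zfpm1, against 17.9% of all genes called and 8.71% called higher. The median log2 fold change of the 8 was 1.21 in WT and 1.50 in KO, beside medians of -0.000387 and -0.00785 over all genes tested. Numbers are taken to mark the same mouse in both populations. With mouse as a block all 8 were called in both genotypes, beside 24.8% of all genes in WT and 28.3% in KO. Since Gata1 and Pf4 passed the filter through MPP3 alone, they could not have been tested unless they were high there. Of the 6 that passed it through both populations, 3 were called in WT and 5 in KO. The log2 fold changes of these 6 ran from 0.49 to 3.08 in WT and from 0.40 to 2.90 in KO. The medians above also hold Gata1 and Pf4, which both lie above them.

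Gata1, the central factor of both lineages, lies on chromosome X (7959260 to 7978071). It measured 13.8, 16.004, 6.09 and 14.3 CPM in the MPP3 WT libraries in the order of the mouse numbers, and 1.42, 1.79, 2.02 and 1.39 CPM in MPP4 WT. The 2 sets of libraries did not overlap, and the mean was 7.58 times as high in MPP3 (log2 fold change 2.92 ± 0.51, FDR 0.000911). In MPP3 KO it measured 8.40, 7.30, 19.1 and 21.2 CPM, and in MPP4 KO 2.31, 0.214, 1.56 and 1.78 CPM, again without overlap (3.26 ± 0.52, FDR 0.000357). All 8 mice had more Gata1 in MPP3 than in MPP4, and within a mouse the ratio ranged from 3.01 to 10.3 in WT and from 3.64 to 34.1 in KO. The highest ratio came from KO mouse 2, whose MPP4 library held 8 counts of Gata1.

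Klf1 (chromosome 8, 84901928 to 84905291) measured 6.50, 10.3, 5.13 and 4.12 CPM in MPP3 WT and 3.73, 4.10, 3.65 and 1.81 CPM in MPP4 WT. The groups just failed to overlap, but the log2 fold change of 0.97 ± 0.51 was not called (FDR 0.299), although it was with mouse as a block (FDR 0.0533). In KO, 5.29, 4.55, 6.71 and 11.8 CPM in MPP3 stood against 0.807, 0.428, 3.22 and 3.02 CPM in MPP4 (1.93 ± 0.53, FDR 0.0220). Both low MPP4 KO libraries came from the male mice.

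Gfi1b (chromosome 2, 28609450 to 28621982), the regulator with the highest level per kilobase among the members, measured 95.7, 76.9, 44.1 and 58.4 CPM in MPP3 WT and 38.5, 52.1, 25.9 and 33.0 CPM in MPP4 WT, and the groups overlapped. Each WT mouse had more in MPP3, by 1.48 to 2.48 times, but the change of 0.88 ± 0.43 was not called without the block (FDR 0.244) and was called with it (FDR 0.000303). In KO, MPP3 libraries measured 31.7, 30.7, 91.3 and 103 CPM and MPP4 libraries 21.5, 32.8, 75.7 and 65.6 CPM. Here mice 1 and 2 were low and mice 3 and 4 high in both populations, and 3 of 4 mice had more in MPP3 (0.40 ± 0.43, FDR 0.645, and FDR 0.0698 with mouse as a block).

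Zfpm1 (chromosome 8, 122282141 to 122337251), the cofactor of GATA1, was higher in MPP3 in all 8 mice. Its MPP3 WT libraries measured 8.22, 17.4, 14.2 and 21.7 CPM and its MPP4 WT libraries 5.74, 7.62, 11.3 and 12.96 CPM, which overlapped (0.71 ± 0.28, FDR 0.127, and FDR 0.0139 with mouse as a block). The KO libraries measured 14.6, 19.1, 19.4 and 21.7 CPM in MPP3 and 10.6, 14.3, 10.3 and 9.16 CPM in MPP4, without overlap (0.75 ± 0.28, FDR 0.0911). That call was lost in 10 of 26 alternatives, 8 of which left out 1 library (in MPP3, WT mouse 2 or 3 or KO mouse 2, 3 or 4, and in MPP4, KO mouse 1, 3 or 4, with FDR values of 0.102 to 0.194). In WT a call appeared without MPP3 WT replicate 1 (FDR 0.0267) or MPP4 WT replicate 4 (FDR 0.0736). The protein-coding gene Gm20388 overlaps Zfpm1 on the same strand, so their reads could be shared.

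Epor (chromosome 9, 21958897 to 21963506) was close to the limit of detection in MPP4 cells. The MPP3 libraries held 151, 105, 85 and 35 counts of it in the WT mice and 76, 61, 91 and 106 counts in the KO mice. The MPP4 libraries held 50, 10, 45 and 0 counts in the WT mice and 9, 1, 9 and 17 counts in the KO mice, so all but 2 of them lay below the lowest MPP3 library. A count of 0 allows up to 3 counts, or 0.0619 to 0.118 CPM in these libraries, and this limit covers counting error only. In a fit of all 26699 genes with at least 1 count, Epor was not called in WT (FDR 0.170, with 5.65% of genes called) and was called higher in MPP3 in KO (log2 fold change 3.07 ± 0.85, FDR 0.0421, with 6.97% called). All 8 mice had more Epor in MPP3 than in MPP4.

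Among the erythroid products, Car1 (chromosome 3, 14766216 to 14808368) measured 20.04, 24.8, 14.0 and 15.5 CPM in MPP3 WT and 6.96, 5.59, 10.5 and 4.26 CPM in MPP4 WT. Every MPP3 library lay above every MPP4 library (1.44 ± 0.49, FDR 0.0706). In KO, the values of 8.14, 7.27, 15.1 and 17.5 CPM in MPP3 and 4.09, 0.777, 8.93 and 5.65 CPM in MPP4 overlapped (1.31 ± 0.49, FDR 0.0949). Both calls stood close to the threshold. That in WT was lost in 7 of 26 alternatives (FDR 0.00651 to 0.183) and that in KO in 15 (FDR 0.00562 to 0.230). With mouse as a block both calls held. The alternatives that lost the WT call included leaving out any 1 of MPP3 WT replicates 1 and 2 and MPP4 WT replicates 1, 2 and 4 (FDR 0.113 to 0.183). In KO they included leaving out any 1 of the 4 MPP3 WT libraries, MPP4 WT replicates 1 and 2, MPP3 KO replicates 3 and 4, and MPP4 KO replicates 1, 2 and 4 (FDR 0.103 to 0.230). A processed pseudogene, Gm16399, overlaps Car1.

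Car2 (chromosome 3, 14886273 to 14900770) had 18386 to 62001 counts per library and the smallest standard error of the 8 in this comparison. The MPP3 WT libraries measured 1389.5, 1306, 1493 and 1344 CPM and the MPP4 WT libraries 995, 920.2, 1071 and 944 CPM. The groups did not overlap, and the ratio within a mouse stayed between 1.39 and 1.42 (0.49 ± 0.11, FDR 0.00473). In KO, 1185, 1001, 1077 and 1021 CPM in MPP3 stood above 530.2, 601, 759 and 810.1 CPM in MPP4 (0.67 ± 0.11, FDR 0.000341). Although the log2 fold change of Car2 was the smallest of the 5 called in WT, its level in MPP4 exceeded that of any other member.

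Of the megakaryocyte products, Itga2b (chromosome 11, 102453297 to 102470122) showed the largest log2 fold change of the 8 in WT. It measured 106, 105, 103 and 109 CPM in MPP3 WT and 11.1, 12.9, 13.9 and 12.2 CPM in MPP4 WT. The mean was 8.44 times as high in MPP3 (3.08 ± 0.25, FDR 3.99e-07), and no mouse fell below a ratio of 7.44 in WT or 5.82 in KO. In KO, 74.9, 83.5, 101 and 126 CPM in MPP3 stood against 6.11, 14.4, 11.4 and 19.6 CPM in MPP4 (2.90 ± 0.25, FDR 6.93e-07). Pf4 (chromosome 5, 90772435 to 90773383) was far lower, with 3.61, 6.62, 5.20 and 3.16 CPM in MPP3 WT and 0.802, 1.25, 2.12 and 1.39 CPM in MPP4 WT. All MPP3 libraries again exceeded all MPP4 libraries (1.73 ± 0.39, FDR 0.00681), as they did in KO, with 3.53, 1.86, 5.09 and 4.90 CPM against 1.15, 0.696, 1.52 and 1.45 CPM (1.68 ± 0.40, FDR 0.00815). The calls of Itga2b, Gata1, Pf4 and Car2 held in all 26 alternatives in both genotypes.

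**Figure D2:**
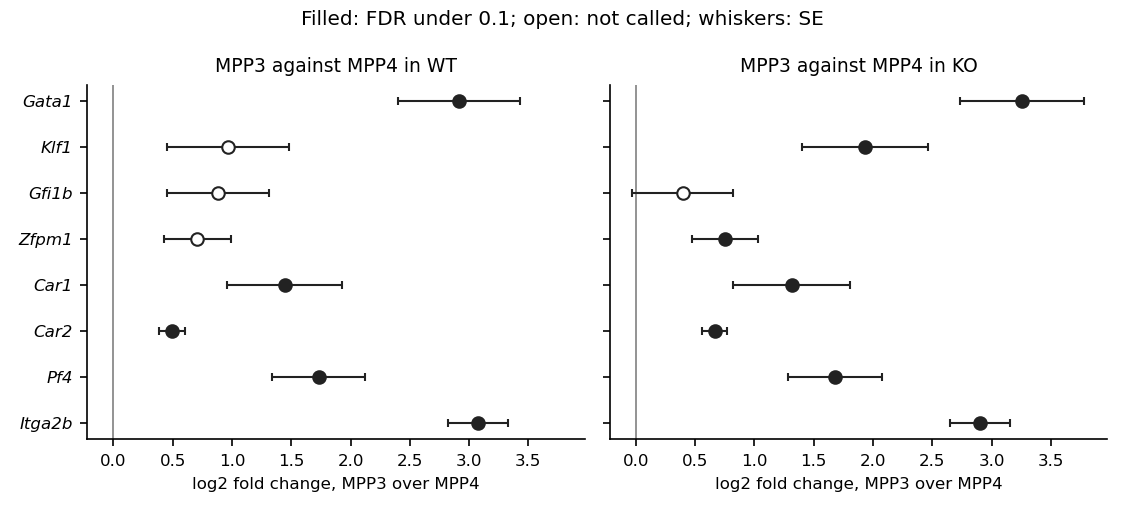
Log2 fold change of the 8 tested members for MPP3 over MPP4, in WT mice (left) and KO mice (right). Whiskers are standard errors, filled points were called at an edgeR FDR under 0.1 and open points were not. All points lie above 0, from 0.49 (Car2) to 3.08 (Itga2b) in WT and from 0.40 (Gfi1b) to 3.26 (Gata1) in KO.

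Transcripts of other cells moved with the population. The counts of called markers stand beside the 15.1% of all genes tested that were called in WT (6.8% higher in MPP3). The summed level of 12 mast cell and basophil markers ranged from 281 to 363 CPM in MPP3 WT and from 29.8 to 54.5 CPM in MPP4 WT, and 8 of the 10 tested were called higher in MPP3, in WT, 5 of which had passed the filter through MPP3 alone. Of this list, Cpa3 lay at 116 to 262 CPM in MPP3 WT and 2.88 to 5.72 CPM in MPP4 WT, while Gzmb, Cma1 and Tpsb2 were at 0 in all MPP4 WT libraries and Tpsab1 was at 0 in all WT libraries. The 8 eosinophil markers summed to 15.9 to 44.8 CPM in MPP3 WT and 0.847 to 3.96 CPM in MPP4 WT, with Ear1 and Ear6 at 0 in MPP4 WT. The 10 markers of MPP2 cells and stem cells summed to 287 to 394 CPM and 165 to 263 CPM, and 4 of the 8 tested were called higher in MPP3 (3 of 7 without the gene that passed the filter through MPP3 alone). The 12 myeloid progenitor markers summed to 5837 to 9785 CPM in MPP3 WT and 2388 to 3159 CPM in MPP4 WT (10 of 12 called, 8 of them higher in MPP3, of which 1 had passed the filter through MPP3 alone). The 10 lymphoid progenitor markers, Flt3 among them, summed to 1078 to 1288 CPM and 3227 to 3430 CPM (9 of 10 called, 8 of them lower in MPP3, of which 4 had passed the filter through MPP4 alone). The part of these cells in the difference of the members was not tested. Red cell transcripts did not separate the populations: 8 of them summed to 21.5 to 75.7 CPM in MPP3 WT and 18.6 to 42.5 CPM in MPP4 WT, and none of the 3 tested globin genes was called. Ter119+ cells had been depleted, and Alas2 and Slc4a1, which are defining genes of erythroblasts, did not exceed 1.92 and 3.06 CPM in WT libraries.

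The genes that work beside the members were read from 5 lists that hold no member. Their counts stand beside the 15.1% of all genes tested that were called in WT (6.8% higher in MPP3) and the 17.9% called in KO (8.71% higher). The list counts come from the fit that leaves out the pairing of libraries. With mouse as a block, 24.8% of all genes were called in WT and 28.3% in KO. Genes that passed the filter through MPP3 alone had to be high there, so the count without them is given where a list held any. Of 28 other transcription factors of the lineages, all of them tested, 13 were called in MPP3 against MPP4 in WT, 6 higher and 7 lower in MPP3, and in KO 15 were called, 7 higher. Without Sox6 and Zbtb16, which passed through MPP3 alone, 11 of 26 were called in WT, 4 of them higher, and 13 in KO, 5 of them higher. Gata2, the GATA factor of stem and mast cells, was higher in MPP3 (1.80 ± 0.18, FDR 3.31e-06), with 140 to 203 CPM in MPP3 WT and 32.2 to 63.3 CPM in MPP4 WT. Sox6, a partner of the erythroid program, was higher as well (4.22 ± 0.49, FDR 1.8e-05), with 29.6 to 44.5 CPM against 0.944 to 3.42 CPM. Mef2c, which acts in megakaryocytes and in lymphoid progenitors, was lower in MPP3 (-1.08 ± 0.11, FDR 3.51e-06), and so was Bcl11a, a repressor of fetal globin that B cells also need (-0.65 ± 0.08, FDR 4.99e-05). The median log2 fold change of this list was -0.04 in WT and 0.06 in KO.

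Around the erythropoietin receptor, 5 of 18 tested genes were called in WT, 4 higher and 1 lower in MPP3, and 5 in KO, 3 of them higher. Stat5a, which carries the signal of the receptor, was higher in MPP3 (0.67 ± 0.08, FDR 1.15e-05, 118 to 152 CPM against 82.2 to 89.4 CPM in MPP4 WT). Kit, the receptor of stem cell factor, was higher too (0.51 ± 0.07, FDR 5.81e-05), with 705 to 838 CPM against 498 to 578 CPM. Sh2b3, an inhibitor of this signalling, was lower in MPP3 in WT (-0.57 ± 0.20, FDR 0.0869) and was not called in KO (-0.44 ± 0.20, FDR 0.188). The WT call was lost in 11 of 26 alternatives, 8 of which left out 1 library (in MPP3, WT mouse 2, 3 or 4 or KO mouse 1 or 3, and in MPP4, WT mouse 1, 2 or 4), with FDR values up to 0.225. In KO a call appeared with mouse as a block (FDR 0.0307), in the fit of 8 libraries (FDR 0.0820) and without MPP3 WT replicate 1 (FDR 0.0976). Erfe and Irs2 did not pass the filter.

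Of 37 erythroid products, 21 were tested, and 7 were called in WT and 6 in KO, all of them higher in MPP3. Without Mfsd2b, which passed the filter through MPP3 alone, 6 of 20 were called in WT and 5 in KO. The genes named here were Vamp5 (1.21 ± 0.09, FDR 9.23e-08) and Icam4, an erythroid adhesion molecule (1.78 ± 0.18, FDR 4.25e-06). Vamp5 lay at 193 to 219 CPM in MPP3 WT and 84.0 to 95.5 CPM in MPP4 WT, and Icam4 at 15.6 to 22.4 CPM and 4.39 to 6.49 CPM. Several late genes of the red cell, among them Slc4a1, Epb42, Rhag, Rhd and Alas2, did not reach the filter.

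Of 33 megakaryocyte genes 21 were tested, and 14 were called in WT, 13 of them higher in MPP3, with 15 called and 14 higher in KO. Gp1ba, Gp5 and Rab27b passed the filter through MPP3 alone, and without them 11 of 18 were called in WT, 10 of them higher, and 12 in KO, 11 of them higher. Cd9, a tetraspanin of platelets, was higher in MPP3 (1.51 ± 0.11, FDR 6.7e-08, 78.8 to 95.3 CPM against 26.5 to 36.1 CPM in MPP4 WT), as was Gng11, a G protein subunit (1.54 ± 0.12, FDR 3.18e-07, 38.2 to 41.7 CPM against 11.9 to 14.9 CPM). The exception was Slc35d3, a transporter of platelet dense granules, which was lower in MPP3 (-3.04 ± 0.36, FDR 2.26e-05), with 2.88 to 7.92 CPM against 27.7 to 49.9 CPM. Vwf, Ppbp, Gp6 and Itga2 were among the 12 that did not pass the filter.

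The carbonic anhydrase genes Car13, Car1, Car3 and Car2 lie next to each other on chromosome 3, between 14641727 and 14900770. Besides Car1 and Car2, 14 genes of the family were listed, 5 were tested and 1 was called in WT. It was Car13, which passed the filter through MPP3 alone and so had to be high there, with 5.87 to 9.39 CPM in MPP3 WT and 0.812 to 3.02 CPM in MPP4 WT (2.02 ± 0.34, FDR 0.000569). In KO, Car13 (1.26 ± 0.33, FDR 0.0160) and Car3 (0.92 ± 0.30, FDR 0.0531) were called higher in MPP3. Car3, which was no gene of the rule and is named for its place in the cluster, was not called in WT (0.73 ± 0.30, FDR 0.150). That fit leaves out the pairing of libraries. With mouse as a block more of the 5 tested genes were called in WT.

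**Figure D3:**
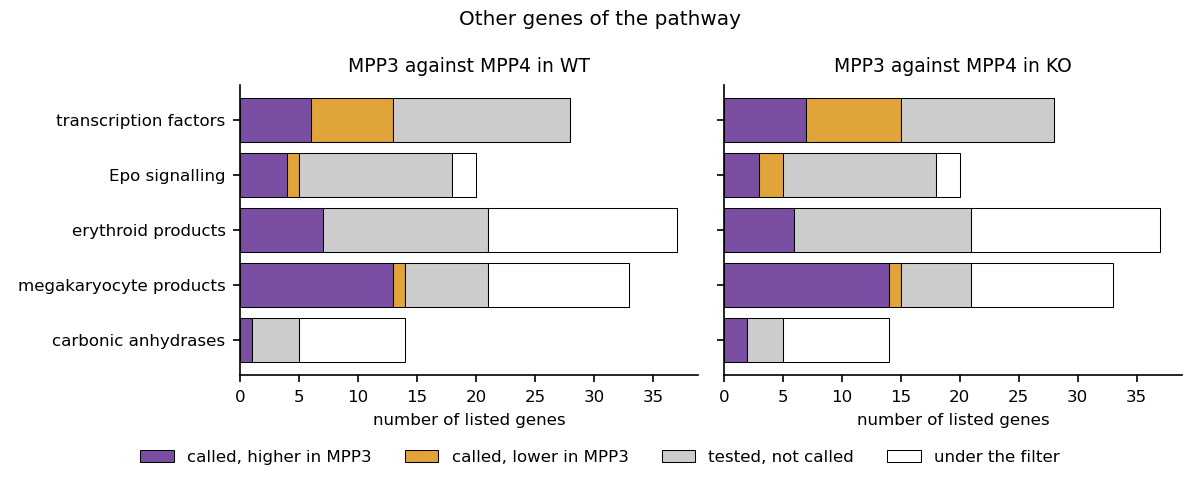
Number of genes in each of 5 lists of other pathway genes that were called higher in MPP3 (purple), called lower in MPP3 (orange), tested and not called (grey) or under the filter on low counts (white), in WT (left) and KO (right). The megakaryocyte list has 13 of 21 tested genes called higher in WT and 14 in KO, and the erythroid products have none called lower.

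The comparison of KO with WT asked whether the erythroid and megakaryocyte transcripts depend on the labelled Ebf1 genotype. No member was called by edgeR in MPP3, where 0.0676% of all genes tested were called, or in MPP4, where 0.0169% were. Unadjusted p-values under 0.05 were found for 1242 genes in MPP3 and 1519 in MPP4, and among the 8 members only for Car2, in both. The median log2 fold change of the 8 was -0.11 in MPP3 and -0.20 in MPP4, with 3 positive values in each, beside medians of -0.00546 and -0.0128 over all genes. The interaction of genotype and population called none of the members and 0% of all genes, with 270 genes at an unadjusted p under 0.05, and DESeq2 called 8 genes.

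Car2 was the member with the clearest difference between genotypes. In MPP3 its 4 KO libraries (1001 to 1185 CPM) lay below all 4 WT libraries (1306 to 1493 CPM), and the mean was 22.6% lower (-0.37 ± 0.11, FDR 0.213). In MPP4 the KO libraries (530.2 to 810.1 CPM) again lay below the WT libraries (920.2 to 1071 CPM), with a mean 31.3% lower (-0.54 ± 0.11, FDR 0.110). The share of all genes whose libraries did not overlap between genotypes was not counted, and both populations came from the same 8 mice. Neither difference passed the threshold in edgeR, while the DESeq2 Wald test called Car2 in MPP3 (adjusted p = 0.0653, with 1.82% of genes called) and in MPP4 (adjusted p = 0.00101, with 2.58% called). In MPP4 edgeR also called it with bias-adjusted deviances (FDR 0.0699), with sex as a term (FDR 0.0553) and without KO replicate 4 (FDR 0.0477), over a range of FDR values from 0.00101 to 0.417 in all 26 alternatives. Within each sex, with 2 mice per genotype, the MPP4 genotypes stayed apart. Female KO mice had 759 and 810.1 CPM against 995 and 920.2 CPM in female WT mice. Male KO mice had 530.2 and 601 CPM against 1071 and 944 CPM in male WT mice. These male KO mice were 10 and 9 weeks old. KO mice were 9 to 11 weeks and WT mice 11 to 12 weeks old, so age and genotype cannot be fully told apart. With age as a term Car2 was not called in MPP4. The 10 MPP2 and stem cell markers had sums of 255 to 316 CPM in KO against 287 to 394 CPM in WT in MPP3 and of 132 to 190 against 165 to 263 CPM in MPP4. Their median log2 fold changes were -0.21 and -0.26, with 3 and 2 of 8 positive and none called, and their part in the levels of Car2 and Kit was not tested. The difference between MPP3 and MPP4 in the size of the Car2 effect was not called (0.17 ± 0.15, FDR 1.00).

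For the other 7 tested members the WT and KO libraries overlapped in both populations. Car1 was on average 35.3% lower in KO in MPP3 (-0.63 ± 0.48, FDR 0.709) and 28.7% lower in MPP4 (-0.50 ± 0.49, FDR 0.698). Klf1 was at a similar mean in MPP3 (0.13 ± 0.51, FDR 0.964) and 43.7% lower in MPP4 KO (-0.84 ± 0.53, FDR 0.520). There the male KO libraries lay at 0.428 and 0.807 CPM against 1.81 and 3.65 CPM in male WT. The female KO libraries lay at 3.02 and 3.22 CPM against 3.73 and 4.10 CPM in female WT. The log2 fold changes of Gata1, Gfi1b, Zfpm1, Pf4 and Itga2b lay between -0.27 and 0.28 in MPP3 and between -0.22 and 0.39 in MPP4, with standard errors of 0.23 to 0.51. For Gata1 these data leave 95% intervals of -0.75 to 1.08 in MPP3 and -1.18 to 0.82 in MPP4, so changes of that size were not detectable. Of the other pathway genes edgeR called only Kit, in MPP4, where it fell by 0.42 ± 0.07 on the log2 scale (FDR 0.0560, 381 to 431 CPM in KO against 498 to 578 CPM in WT). This call was lost in 6 of 26 alternatives: with age as a term (FDR 0.259), without any 1 of MPP4 WT replicates 1 and 3 and MPP4 KO replicates 1 and 2 (FDR 0.114 to 0.285), and without WT mouse 1 in both populations (FDR 0.103). The call of Kit belonged to the 1 called of 18 tested genes around the erythropoietin receptor, and edgeR called none in the other lists in either population. Among the genes named here, the DESeq2 Wald test also called F13a1 in MPP3 (adjusted p = 0.0403) and MPP4 (adjusted p = 0.0641), and Gng11 (adjusted p = 0.0649), Foxo3 (adjusted p = 0.0760) and Stat5a (adjusted p = 0.0997) in MPP4. Under alternatives, edgeR also called F13a1 in MPP4 in the fit of 8 libraries (FDR 0.0473), and Gng11 (FDR 0.0822), Stat5a (FDR 0.0860) and Gfi1 (FDR 0.0929) in MPP4 with sex as a term. In MPP3 it called F13a1 (FDR 0.0370) and Alas1 (FDR 0.0622) without MPP3 KO replicate 1, and Stat5a (FDR 0.0844) without MPP3 WT replicate 3.

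Below the threshold in edgeR, the smallest p-values of the lists in MPP3 belonged to Gfi1 (0.93 ± 0.36, FDR 0.364), Kit (-0.22 ± 0.07, FDR 0.248), Alas1 (0.58 ± 0.23, FDR 0.399), F13a1 (1.31 ± 0.33, FDR 0.164) and Car9 (-0.16 ± 0.14, FDR 0.754). In MPP4 they belonged to Foxo3 (-0.30 ± 0.08, FDR 0.187), Urod (0.18 ± 0.07, FDR 0.275), Gng11 (-0.46 ± 0.12, FDR 0.179) and Car13 (0.45 ± 0.33, FDR 0.587), besides Kit. F13a1, a coagulation factor subunit that monocytes also make, lay at 82.1 to 224 CPM in MPP3 KO and 30.3 to 102 CPM in MPP3 WT. The myeloid progenitor markers moved beside it, with a sum over 12 genes of 6986 to 16386 CPM in MPP3 KO and 5837 to 9785 CPM in MPP3 WT, and none of the 12 was called, although all 12 log2 fold changes were positive, with a median of 0.81. The part of myeloid progenitors in the level of F13a1 was not tested.

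**Figure D4:**
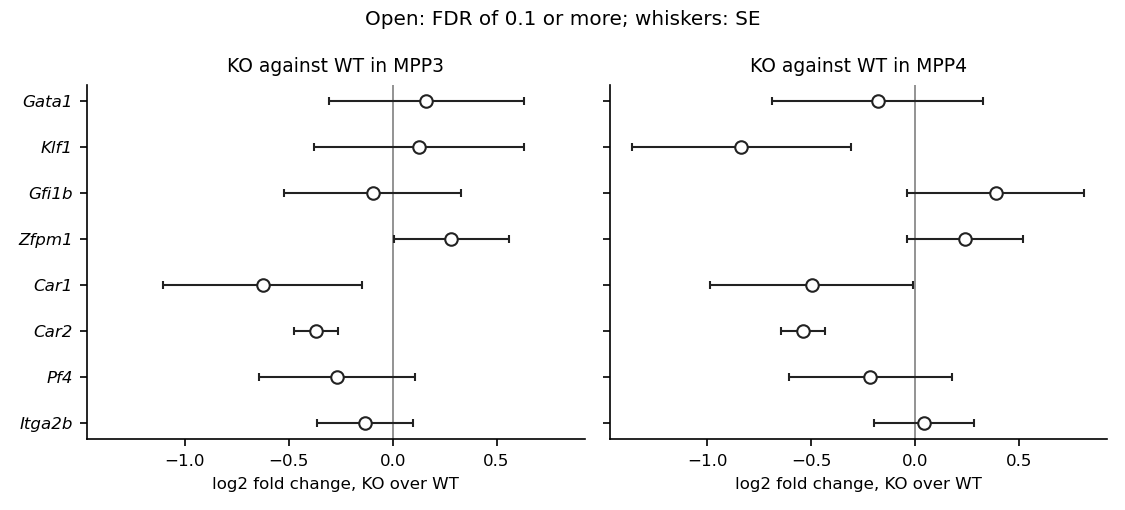
Log2 fold change of the 8 tested members for KO over WT in MPP3 (left) and MPP4 (right), with standard errors as whiskers. Open points mark that none was called at an edgeR FDR under 0.1. Car2 has the shortest whiskers and lies at -0.37 in MPP3 and -0.54 in MPP4, and the other points scatter around 0.

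Within each genotype, the spread of Gfi1b followed the sex of the mouse. This comparison was added after the values were seen, so its FDR values are no independent test of the pattern. The counts of both libraries of a mouse were summed, with genotype and sex as terms. Gfi1b was higher in females by 1.10 ± 0.17 on the log2 scale (FDR 0.0533), and was the only one of the 8 members called, where 1.52% of genes were called and 0.972% were called higher in females. In MPP3 alone, the 4 female mice measured 76.9 to 103 CPM and the 4 male mice 30.7 to 58.4 CPM, without overlap (1.19 ± 0.18, FDR 0.0416, with 1.01% of genes called). In MPP4 the females measured 38.5 to 75.7 CPM and the males 21.5 to 33.0 CPM, again without overlap (1.00 ± 0.20, FDR 0.0925, with 0.537% called). Females exceeded males in both genotypes, by 97.3 against 31.2 CPM in MPP3 KO and by 86.3 against 51.2 CPM in MPP3 WT, as means of 2 mice each. Mouse numbers 1 and 2 were female in WT and male in KO, so the order of the numbers and the sex cross. In KO the males were also younger (9 and 10 against 11 weeks), while in WT both sexes had the same ages.

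Of the 8 members, 7 had a positive log2 fold change for females over males in the summed counts, with a median of 0.62 beside 0.00379 over all genes. In MPP4 alone Gata1 and Pf4 did not pass the filter. In MPP3, Car1 was called (0.84 ± 0.16, FDR 0.0857), with 15.1 to 24.8 CPM in females and 7.27 to 15.5 CPM in males. Klf1 did not overlap between the sexes in MPP3, with 6.50 to 11.8 CPM in females and 4.12 to 5.29 CPM in males, but was not called (0.89 ± 0.25, FDR 0.155). Gata1, on chromosome X, lay at 13.8 to 21.2 CPM in female and 6.09 to 14.3 CPM in male MPP3 libraries (0.95 ± 0.27, FDR 0.160). Zfpm1 went the other way in MPP4, with 5.74 to 10.3 CPM in females and 10.6 to 14.3 CPM in males, and was not called (-0.61 ± 0.20, FDR 0.251). Car2 did not follow sex (0.04 ± 0.07, FDR 0.827).

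The call of Gfi1b over the summed counts was lost without any 1 of WT mouse 3 and KO mice 1, 2 and 4, with FDR values of 0.108 to 0.159. In MPP3 it was lost without WT mouse 3, KO mouse 1 or KO mouse 4 (FDR 0.117 to 0.169), and the call of Car1 was lost in 7 of the 8 omissions (FDR 0.106 to 0.222). The log2 fold change of Gfi1b stayed between 0.81 and 1.36 over the 12 alternatives of each of the 3 comparisons. Of all genes tested, 1.52% were called in the summed counts and 1.01% in MPP3. Of 10 tested mast cell and basophil markers, Cma1 alone was called higher in females. The summed level of this list ranged from 281 to 549 CPM in female and from 235 to 411 CPM in male MPP3 libraries. All 10 were positive in MPP3, with a median log2 fold change of 1.15 beside 0.00931 over all genes tested there. The 10 B and plasma cell markers summed to 580.0 to 1627 CPM in female and 365 to 645 CPM in male MPP3 libraries. Of these, 5 were tested in MPP3, all 5 were positive with a median of 1.04, and 1 was called (Xbp1, which plasma cells need). The 12 myeloid progenitor markers summed to 7817 to 16386 CPM in females and 5837 to 12721 CPM in males, with 11 of 12 positive in MPP3 and none called. None of the 3 tested globin genes was called. In MPP3 the 10 MPP2 and stem cell markers summed to 255 to 394 CPM in females and 267 to 326 CPM in males. Of the 8 tested, 6 were positive and 1 was called higher in females. The 8 eosinophil markers summed to 15.9 to 44.8 and 6.88 to 33.4 CPM. The 10 lymphoid progenitor markers summed to 1078 to 1273 and 1226 to 1341 CPM, with 1 of 6 tested positive and none called. The part of other cells in the difference between the sexes was not tested.

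**Figure D5:**
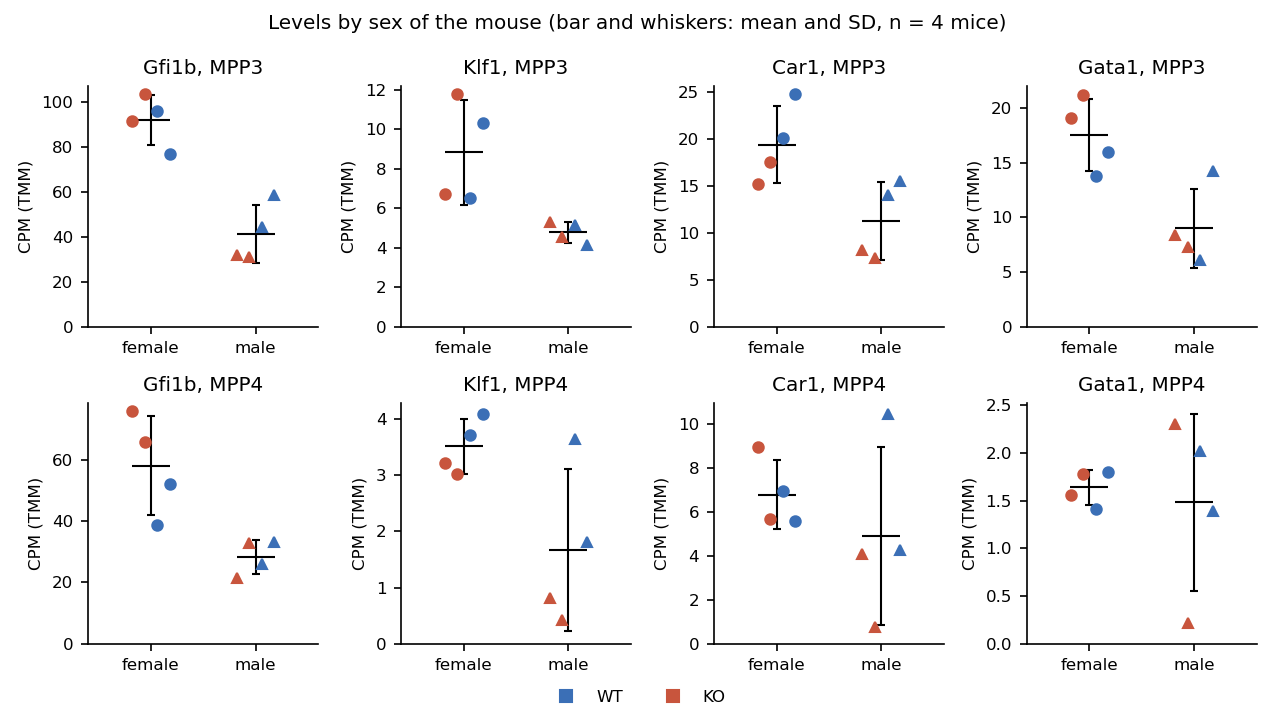
Levels of Gfi1b, Klf1, Car1 and Gata1 in MPP3 (top) and MPP4 (bottom) libraries of female and male mice, in TMM-normalised CPM on linear axes from 0, with the genotype as colour. Points are mice and the bar with whiskers is the mean with its SD over 4 mice. Gfi1b does not overlap between the sexes in either population, and the others overlap in MPP4.

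The 8 tested members varied in how closely they followed their common pattern. Each was compared, as a description without a test, with the mean standardised log2 level of all 8 over the 16 libraries, in which the libraries of a mouse share their source. Pearson's r was 0.95 for Pf4, 0.94 for Gata1, 0.92 for Itga2b, 0.89 for Klf1 and Car1, 0.82 for Car2, 0.67 for Gfi1b and 0.56 for Zfpm1. After the mean of each group was removed, Klf1 (0.87) and Car1 (0.82) stood highest and Zfpm1 at 0.05, so Zfpm1 varied among mice apart from the rest. Each member is itself part of that mean, which raises its r, while the genes below are not part of it. Among the other genes tested, the 5 with the highest r over all libraries were Dapp1 (0.97), Mfsd2b (0.97), Ankrd27 (0.96), Tfec (0.96) and Atp1b2 (0.96). On deviations from the group means they were Mfsd2b (0.91), Cd1d1 (0.89), Tbxas1 (0.88), Dapp1 (0.88) and Ctnna1 (0.86). Mfsd2b, which encodes a sphingosine-1-phosphate exporter of red cells and platelets, and Dapp1 were named by both measures. Spearman's rho for Mfsd2b was 0.98 over all libraries and 0.94 on the deviations. With a prior count of 0.5 in place of 2, 8 of these 10 names stayed.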

How the data were processed

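MPP3 and MPP4 cells of 8 mice were profiled by RNA-seq (16 libraries, 4 per population and labelled genotype). The authors aligned the reads to mm10 with STAR 2.7.3a, counted them per gene with featureCounts 2.0.0 and deposited raw counts without normalisation. The annotation release and the strand setting of the counting are not given in the sources used here, so overlapping genes may share reads. A second deposited table, in which the authors divided the counts by DESeq2 (1.28.1) size factors, was not used here. Symbols, exon lengths and coordinates came from a GENCODE annotation of GRCm38, which matched 47224 of 47937 identifiers. Ahsp, a gene of the erythroid list, was not analysed here.

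All 16 libraries entered 1 edgeR (4.0.16, R 4.3.3) quasi-likelihood F-test with TMM normalisation, legacy deviances and 1 mean per group, after genes at or under a mean of 100 counts in every group had been removed. P-values were adjusted over all genes by the Benjamini-Hochberg method, and an FDR under 0.1 was a call. The contrasts were MPP3 against MPP4 in each genotype, KO against WT in each population, and their interaction. Standard errors are the log2 fold change over the square root of F, and 95% intervals span 1.96 standard errors to each side. The scripts recovered the changes set in simulated counts. Reads carried no molecular identifiers, so limits for a count of 0 (3 counts) cover counting error only.

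The 2 libraries of a mouse share genotype, number, sex and age, and are taken as pairs on that ground. Their deviations from the group means correlated in all 8 mice (r = 0.274 to 0.528). Libraries of different mice were not compared within a genotype, so this r does not show the pairing by itself. The reported fit leaves this pairing out. In the comparison of populations, the fit with mouse as a block is given beside it for the members. For most genes of the other lists it is not given. Named were all members, from each list the 2 called genes of smallest p in each direction in WT, the called genes (or else the gene of smallest p) in KO against WT, and the 5 genes of highest likeness by each measure. Members and lists were chosen with earlier results of these data known. Alternatives were RLE normalisation, DESeq2 (1.42.0), bias-adjusted deviances, other filters, mouse, sex or age as a term, fits of 8 libraries, each library left out, and a prior count of 0.5 in place of 2. The comparison of the sexes, with its 12 alternatives, was added after the values had been seen.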

Additional observations from a re-analysis of the deposited data

How the results depend on the processing

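Of 4403 log2 fold changes recomputed for the members and named genes, 4123 kept their direction and side of the threshold, 69 lost and 56 gained a call, 155 uncalled ones changed sign, and 0 called ones reversed. The members called higher in MPP3 in WT numbered 5, and 8 with the replicate block, in which the libraries of a mouse are paired. Of 11831 genes, 804 and 1339 were called higher in these fits. For KO against WT in MPP3, 0 members were called by edgeR and 1 (Car2) by DESeq2, beside 0.0676% and 1.82% of all genes. In MPP4 the count was 0, and Car2 made it 1 under DESeq2, bias-adjusted deviances, sex as a term and the replicate block (FDR 0.0658). Those fits called 305, 37, 183 and 23 of 11831 genes, and the main fit 2. The count of members ranged from 0 to 1 with single libraries left out. There the call appeared without MPP3 WT replicate 1, MPP4 KO replicate 3 or MPP4 KO replicate 4. WT and KO mice of the same number share only the number (r = -0.440 to 0.0606 over 8 pairs), so that block is no pairing by design. For females against males the members called were 1, then 4 under DESeq2, 3 without the filter and 0 to 2 with single mice left out. The same fits called 180 of 11831 genes, then 970, 470 of 26699 and 13 to 575. In MPP3 the members called were 2, then 4 under DESeq2, 4 without the filter and 0 to 2 with single mice left out. There 116 of 11482 genes were called, then 785, 423 of 24975 and 8 to 77. In MPP4 the members called were 1, then 0 under RLE, 2 without the filter and 0 to 1 with single mice left out. There 62 of 11549 genes were called, then 45, 541 of 24841 and 13 to 599. The call of Gfi1b in MPP4 was lost without any 1 of WT mice 2 and 3 and KO mice 1, 2 and 4 (FDR 0.136 to 0.310). The carbonic anhydrase list had 1 call in WT, 2 under DESeq2, bias-adjusted deviances and the sex or age term, 3 with the replicate block, and 1 to 2 with single libraries left out. Of 11831 genes, the main fit called 1790, DESeq2 1960 and bias-adjusted deviances 1883. The sex term gave 2105, the age term 1869 and the replicate block 2930, and single libraries left out gave 1367 to 1805. The cause of these shifts was not tested. Depth limits Epor, Gata1, Pf4 and Klf1, whose MPP4 libraries held few counts.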
